A study of Mus musculus with 6 samples.

Results

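Imprinted genes were followed by RNA-seq while J1 mouse embryonic stem (ES) cells were moved from serum to 2i+vitC medium. The set is a list of 45 genes, drawn up by name but with earlier results of these data known. Of these, 36 had a row among the 12626 genes of the files. The other 9, Airn, Snrpn, Snurf, Dlk1, Rtl1, Kcnq1, Zim1, Zfp264 and Magel2, had no row under those names and are not analysed here. Rows were present for 15 of the 17 genes listed as maternally expressed, 18 of the 25 listed as paternally expressed and all 3 whose expressed copy depends on the isoform (Blcap, H13 and Inpp5f).

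The cells were wild-type J1 ES cells, a single line, grown on gelatin without feeder cells and with leukemia inhibitory factor throughout. D0 cells were in serum, and D6 and D13 cells had spent 6 and 13 days in serum-free medium with a Gsk3 inhibitor, a MEK inhibitor and vitamin C, a change of medium that strips DNA methylation from the ES cell genome. Each day had 2 biological replicates, which gives 6 samples. Levels are log2 CPM, counts relative to each sample's total as adjusted by TMM scaling. Between 73230745 and 83688345 reads per sample lay on genes. A gene was called changed when it differed more than 4-fold between 2 days with a Benjamini-Hochberg adjusted p under 0.05 in limma, and "rose" and "fell" are kept for such calls. Where an imprinted gene passed only the adjusted p, this is said.

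Imprinted genes are transcribed mainly from a single parental copy. The choice is inherited as DNA methylation laid down in the egg or the sperm over a control region, and that methylation is protected after fertilization by factors such as ZFP57 and TRIM28 when the rest of the genome loses its own. In this change of medium, however, the study reported that control regions of imprinted genes kept no methylation at the end of the conversion. Most imprinted genes lie in clusters in which a noncoding RNA and protein-coding genes are read from opposite parental copies. Many of them act on growth of the fetus and placenta or in the brain. The files hold 1 value per gene and sample, so expression was measured over both parental copies together and the share of each copy was not measured.

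Promoter sequences show what kind of region these genes start from. RefSeq windows on GRCm38.p6, from 250 bases before to 50 bases after a start, were found for 35 of the 45 genes. The letters TGCCGC, the core of the motif bound by ZFP57, or their reverse complement GCGGCA, occurred in at least 1 window of 11 of the 35 genes. Over all symbols of the table the share was 13.1%, and over single windows of this length 11.6%. Among the genes listed with a germline methylated region at their promoter, 5 of the 10 with a window held the letters, namely Nnat, Mest, Plagl1, Mcts2 and Snrpn. Snurf, which shares the matching window of Snrpn, and Usp29, which starts beside Peg3, were not in that list. A match is a description of the letters only, and the windows differ in CpG content, with 17 CpG for Nnat, 26 for Plagl1 and 7 for the matching window of Snrpn, against a median of 7 over all windows. The sequences below are of 3 such promoters whose genes moved in opposite directions, Nnat at chr2:157559828-157560127, Mest at chr6:30737800-30738099 and Plagl1 at chr10:13090582-13090881, and of the more distal of 2 starts of Zdbf2 at chr1:63200108-63200407, which held the letters 3 times. All 4 are on the plus strand, and capitals mark the motif on either strand.
Nnat: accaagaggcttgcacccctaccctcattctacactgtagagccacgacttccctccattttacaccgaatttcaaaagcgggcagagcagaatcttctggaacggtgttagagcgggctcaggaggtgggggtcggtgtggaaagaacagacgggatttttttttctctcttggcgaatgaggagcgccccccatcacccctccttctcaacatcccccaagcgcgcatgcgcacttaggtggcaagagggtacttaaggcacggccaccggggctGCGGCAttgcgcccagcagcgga
Mest: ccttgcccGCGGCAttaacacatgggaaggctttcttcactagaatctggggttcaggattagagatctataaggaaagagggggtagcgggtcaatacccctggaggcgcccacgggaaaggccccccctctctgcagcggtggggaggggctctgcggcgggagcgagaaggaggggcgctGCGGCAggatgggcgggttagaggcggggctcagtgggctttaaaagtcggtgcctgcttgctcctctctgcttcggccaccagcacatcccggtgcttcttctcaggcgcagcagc
Plagl1: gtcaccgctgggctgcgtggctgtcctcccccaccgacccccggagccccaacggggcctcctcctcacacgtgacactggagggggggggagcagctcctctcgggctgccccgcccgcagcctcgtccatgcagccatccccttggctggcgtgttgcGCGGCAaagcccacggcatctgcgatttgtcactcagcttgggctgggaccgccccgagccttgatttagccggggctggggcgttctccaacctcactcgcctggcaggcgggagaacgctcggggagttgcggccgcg
Zdbf2: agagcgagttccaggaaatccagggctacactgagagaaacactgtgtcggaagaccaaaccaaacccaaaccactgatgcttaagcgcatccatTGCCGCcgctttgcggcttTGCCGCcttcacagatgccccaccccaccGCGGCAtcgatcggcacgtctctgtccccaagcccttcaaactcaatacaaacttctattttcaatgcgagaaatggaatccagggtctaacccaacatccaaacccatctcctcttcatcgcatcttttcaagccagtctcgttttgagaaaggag

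A further window, at chr7:6730333-6730632 on the plus strand, is shown because a pair of paternally expressed genes leave it in opposite directions. Usp29 starts on the plus strand and Peg3 on the minus strand, 164 bases apart, and 263 bases of their windows are shared. Capitals mark the stretch between both starts, and the window holds no TGCCGC and 17 CpG.
Usp29 and Peg3: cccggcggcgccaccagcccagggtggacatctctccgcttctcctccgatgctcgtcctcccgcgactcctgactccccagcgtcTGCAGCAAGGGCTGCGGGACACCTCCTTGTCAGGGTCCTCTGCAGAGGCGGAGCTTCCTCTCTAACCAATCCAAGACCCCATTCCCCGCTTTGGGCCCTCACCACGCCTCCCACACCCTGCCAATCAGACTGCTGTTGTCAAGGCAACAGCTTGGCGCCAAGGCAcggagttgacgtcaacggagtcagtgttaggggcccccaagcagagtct

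From D0 to D6, 13 of the 36 genes were called, 2 higher and 11 lower. Of all genes, 5.91% rose and 3.9% fell by the same rule. The 2 that rose were Plagl1, a zinc-finger transcription factor, and Usp29, a gene of the ubiquitin protease family. The 11 that fell were the noncoding RNAs H19, Rian and Mirg, the growth factor Igf2, the growth restrainers Cdkn1c and Phlda2, the retrotransposon-derived Peg10 with its neighbour Sgce, and Mest, Nnat and Zdbf2. By adjusted p alone, 4 were higher and 14 lower, against 13.8% and 10.4% of all genes.

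From D0 to D13, 11 were called, with Plagl1 higher and 10 lower, against 7.45% and 6.01% of all genes. These were the genes called at D6 except for Rian and Usp29, whose differences were 3.43-fold and 3.97-fold, below the fold minimum. By adjusted p alone, 5 were higher and 15 lower, against 20.9% and 21.8% of all genes. From D6 to D13 only Zdbf2 was called, lower, against 0.388% of all genes higher and 0.697% lower. The remaining 23 genes were called in no comparison. Both comparisons with D0 use the same D0 samples and are not independent of each other.

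The median log2 change over the 36 genes was -0.82 in each comparison with D0, against -0.01 for all genes. Neither the counts nor the median stand for the 45 genes, since a row reached the files only with at least 84 reads in its highest sample, and a gene that passed through its high day alone had to differ. H19 and Nnat, for example, were under that number in both D13 samples. In bulk RNA, fewer cells of a type and less RNA per cell cannot be told apart. The 2 replicates per day give a standard deviation (SD) on 2 values. An exact permutation test of 2 samples against 2 cannot go below p = 0.333. Statements below that the samples of different days did not overlap describe single genes, and their share over all genes was not computed.

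**Figure D1:**
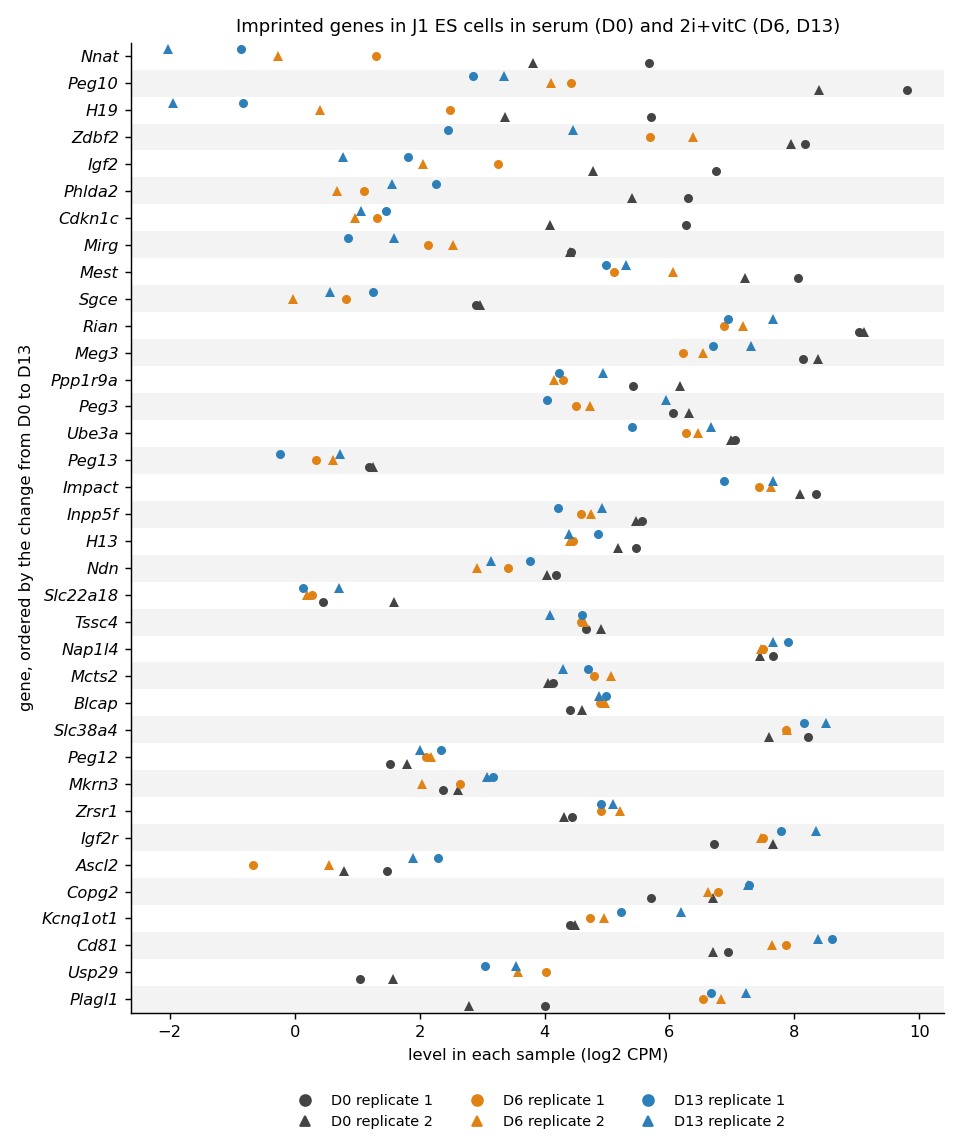
Level of each of the 36 imprinted genes in every sample, in log2 CPM, ordered by the change from D0 to D13, with colour for the day and circles and triangles for replicates 1 and 2. At the top, Nnat goes from 5.67 and 3.82 at D0 to -0.86 and -2.02 at D13, and at the bottom Plagl1 goes from 4.01 and 2.79 to 6.67 and 7.23.

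The Igf2-H19 locus on chromosome 7 pairs a paternally expressed fetal growth factor with a maternally expressed noncoding RNA, and a control region between them, methylated on the paternal copy, directs shared enhancers to the one or the other. On GRCm38, GENCODE vM21 places Igf2 at chr7:142650766-142666816 (minus strand) and H19 at chr7:142575529-142578143 (minus strand). Both genes fell. Igf2 stood at 6.75 and 4.77 log2 CPM in the D0 replicates, 3.25 and 2.05 at D6, then 1.81 and 0.78 at D13. H19 stood at 5.70 and 3.37 at D0, 2.48 and 0.40 at D6, then -0.82 and -1.94 at D13, the last values resting on 40 and 19 reads. The days did not overlap for either gene, and replicate 1 was the higher one on each day.

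Igf2 fell 8.61-fold by D6 (log2 -3.11 ± 0.66 SE, limma adjusted p = 0.0097) and 22.1-fold by D13 (log2 -4.46, adjusted p = 0.001). H19 fell 8.55-fold by D6 (log2 -3.10 ± 0.86 SE, adjusted p = 0.031) and 60.4-fold by D13 (log2 -5.92, adjusted p = 9.4e-04). The D6 calls rested on single libraries. Without D0 replicate 1, H19 was at a log2 change of -1.93 (adjusted p = 0.19) and Igf2 at -2.12 (adjusted p = 0.059). Without D6 replicate 2, H19 was at -2.06 (adjusted p = 0.11), and without D13 replicate 1 or 2 its adjusted p was 0.058 and 0.057. Both D13 calls held with any single library left out, at log2 -4.75 for H19 and -3.47 for Igf2 without D0 replicate 1, and -7.08 and -5.46 without D0 replicate 2.

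The log2 level of H19 minus that of Igf2 in the same sample was -1.22 ± 0.25 at D0, -1.21 ± 0.61 at D6, then -2.67 ± 0.06 at D13 (SD, n = 2). Both genes thus kept nearly the same distance while they fell to D6, and H19 lay lower against Igf2 at D13. Of the GENCODE exons of Igf2, 62.8% are shared with Gm49394 on the same strand. The counts used RefSeq genes, and whether this overlap affected them was not tested. Igf2r, the maternally expressed receptor that removes IGF2 protein, lies elsewhere, on chromosome 17. Its levels were 6.72 and 7.65 at D0, 7.49 and 7.47 at D6, then 7.79 and 8.35 at D13, and its difference between D0 and D13 was 1.84-fold higher at an adjusted p of 0.056.

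The Dlk1-Meg3 locus on chromosome 12 is read on the maternal copy as a string of noncoding RNAs. Meg3 is a long noncoding RNA, Rian carries small nucleolar RNAs and Mirg carries microRNAs. Their protein-coding partners on the paternal copy, Dlk1 and Rtl1, had no row. The annotation has Meg3 at chr12:109541001-109571726 (plus strand), Rian at chr12:109603940-109661716 (plus strand) and Mirg at chr12:109729764-109749460 (plus strand). Per kilobase of exon, Rian was the most abundant of the 3 on each day. Its levels were 9.04 and 9.12 at D0, 6.88 and 7.17 at D6, then 6.94 and 7.66 at D13. Meg3 stood at 8.13 and 8.38, then 6.22 and 6.53, then 6.69 and 7.31. Mirg stood at 4.43 and 4.40, then 2.13 and 2.54, then 0.86 and 1.59. In all 3 RNAs every D6 and D13 sample lay below both D0 samples, and the D0 replicates differed by at most 0.25.

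Rian fell 4.16-fold by D6 (log2 -2.06 ± 0.27 SE, limma adjusted p = 7.9e-04), and Mirg fell 4.22-fold (log2 -2.08 ± 0.35 SE, adjusted p = 0.0028). Meg3 was 3.66-fold lower (log2 -1.87 ± 0.26 SE, adjusted p = 0.0011), past the adjusted p but not the fold minimum. Without D6 replicate 1, Rian (log2 -1.91) and Mirg (log2 -1.87) were also below the fold minimum, and without D6 replicate 2 Meg3 was called. From D6 to D13 the estimates parted, with log2 differences of 0.62 for Meg3, 0.28 for Rian and -1.11 for Mirg, none of which passed the adjusted p. At D13, Mirg was 9.14-fold below D0 (adjusted p = 2.1e-04), Rian 3.43-fold and Meg3 2.38-fold, the latter 2 under the fold minimum at adjusted p = 0.0011 and 0.0055.

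The Kcnq1ot1 locus on chromosome 7 contains the paternally expressed antisense RNA Kcnq1ot1, which silences its neighbours on the paternal copy, and a row of maternally expressed protein-coding genes. The annotation has Kcnq1ot1 at chr7:143203458-143296549 (minus strand), Cdkn1c at chr7:143458339-143461050 (minus strand) and Phlda2 at chr7:143501545-143503150 (minus strand). Of the protein-coding genes, 2 fell together and the others did not. Cdkn1c, an inhibitor of cyclin-dependent kinases, stood at 6.26 and 4.08 at D0, 1.32 and 0.96 at D6, then 1.46 and 1.06 at D13. Phlda2, which restrains growth of the placenta, stood at 6.30 and 5.40, then 1.11 and 0.67, then 2.26 and 1.56. For both genes every D6 and D13 sample was far below the lower D0 sample. The D6 and D13 samples overlapped for Cdkn1c, while both D13 samples of Phlda2 were above its D6 samples.

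Cdkn1c fell 16.3-fold by D6 (log2 -4.03 ± 0.61 SE, limma adjusted p = 0.0018) and was 15.0-fold below D0 at D13 (adjusted p = 0.0014). With D0 replicate 1 left out, its log2 change was -2.93 at D6 and -2.82 at D13, and with D0 replicate 2 left out it was -5.12 and -5.00, called in each case. Of the length of its exons, 30.7% overlaps Gm44732 on the opposite strand. Phlda2 fell 31.1-fold by D6 (log2 -4.96 ± 0.40 SE, adjusted p = 8.3e-05) and was 15.4-fold below D0 at D13 (adjusted p = 1.5e-04). Phlda2 starts 206.6 kb and Cdkn1c 164.5 kb from the start of Kcnq1ot1. Slc22a18, a transporter gene that starts between these 2 genes, was not called. Its levels were 0.46 and 1.59 at D0, 0.28 and 0.20 at D6, then 0.13 and 0.71 at D13.

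Kcnq1ot1 itself stood at 4.40 and 4.49 at D0, 4.72 and 4.95 at D6, then 5.23 and 6.18 at D13. All D13 samples were above all D0 samples, and the difference of 2.39-fold passed the adjusted p (0.013) but not the fold minimum. The log2 level of Cdkn1c minus Kcnq1ot1 was 0.73 ± 1.61 at D0, -3.69 ± 0.42 at D6, then -4.44 ± 0.95 at D13 (SD, n = 2). The plot of gene pairs shows Cdkn1c dropping to D6 while Kcnq1ot1 did not.

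**Figure D2:**
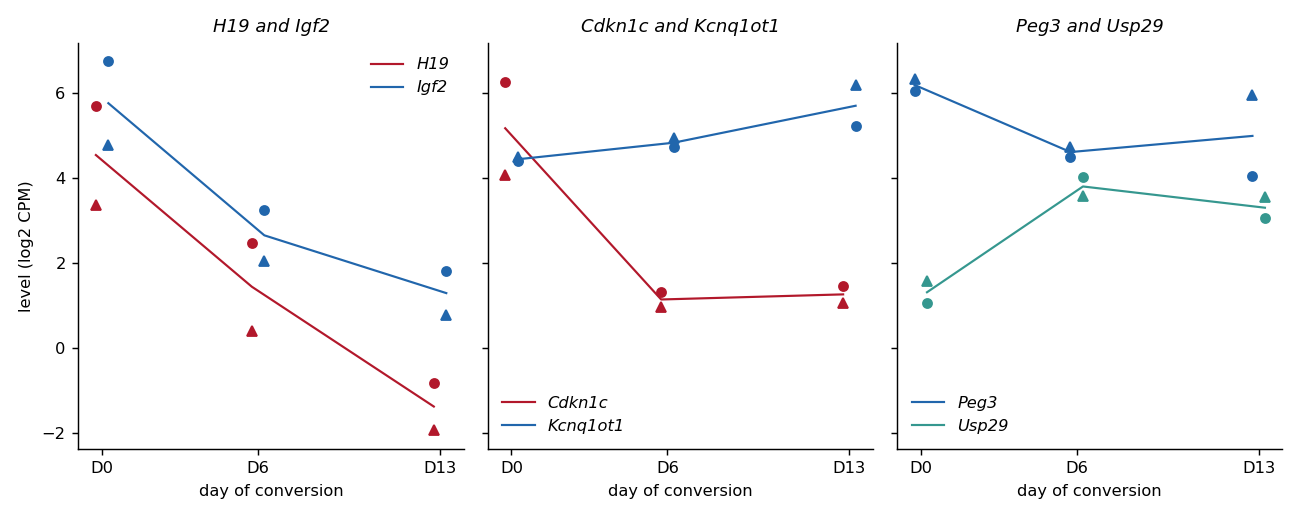
Levels in log2 CPM at D0, D6 and D13 for 3 neighbouring pairs, with a point for each replicate (circle for replicate 1, triangle for replicate 2) and a line through the day means, where red marks the maternally expressed gene and blue or green the paternally expressed genes. H19 and Igf2 go down together, Cdkn1c drops from a mean of 5.17 to 1.14 at D6 while Kcnq1ot1 goes from 4.44 to 4.83, and Usp29 goes up from 1.31 to 3.80 while Peg3 goes from 6.19 to 4.61.

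The other maternally expressed genes of the locus were not called. Cd81, a tetraspanin of the cell surface, stood at 6.94 and 6.70 at D0, 7.86 and 7.64 at D6, then 8.60 and 8.38 at D13. Its difference from D0 was 1.91-fold higher at D6 (adjusted p = 0.014) and 3.17-fold at D13 (adjusted p = 5.2e-04), under the fold minimum on both days. Tssc4 stood at 4.66 and 4.91, then 4.59 and 4.63, then 4.60 and 4.08. Nap1l4, a histone chaperone, stood at 7.65 and 7.45, then 7.49 and 7.47, then 7.90 and 7.65. Neither gene passed the adjusted p in any comparison. Ascl2, a transcription factor of the trophoblast lineage, stood at 1.48 and 0.79 at D0, -0.67 and 0.55 at D6, then 2.29 and 1.89 at D13. Both D6 samples lay below both D0 samples, at a log2 difference of -1.19 (adjusted p = 0.13). Its difference from D6 to D13 was 4.44-fold higher (log2 2.15 ± 0.50 SE) at an adjusted p of 0.051, just short of a call.

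At the Peg3 locus, also on chromosome 7, the pair of genes that share the promoter region printed above went different ways. Annotated were Peg3 at chr7:6703892-6730431 (minus strand) and Usp29 at chr7:6730578-6967219 (plus strand). Usp29 stood at 1.05 and 1.57 at D0, 4.03 and 3.57 at D6, then 3.05 and 3.55 at D13. Peg3, which encodes a large zinc-finger protein, stood at 6.05 and 6.32 at D0, 4.50 and 4.72 at D6, then 4.04 and 5.95 at D13. All D6 and D13 samples were above both D0 samples for Usp29 and below both for Peg3. Usp29 rose 5.59-fold by D6 (log2 2.48 ± 0.34 SE, limma adjusted p = 0.0011) and was 3.97-fold above D0 at D13 (adjusted p = 0.0022), just short of the fold minimum. Peg3 was 2.98-fold lower at D6 (log2 -1.58 ± 0.51 SE) at an adjusted p of 0.056, and 2.28-fold lower at D13 at 0.092. With exons of 13.3 kb, Peg3 was among the genes whose D13 replicates differed most, by -1.91 on the log2 scale. Of the Usp29 exons, 14.3% overlap Zim3 on the opposite strand. Zim1 and Zfp264 of the same cluster had no row.

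At the Snrpn locus, known from the Prader-Willi and Angelman syndromes, 4 of the 7 listed genes had a row and none was called in limma, with 1 gene at an unadjusted p under 0.05 in each comparison (Ndn, Mkrn3 and Ube3a in turn). Ndn, which encodes necdin, stood at 4.19 and 4.04 at D0, 3.41 and 2.92 at D6, then 3.77 and 3.15 at D13. Mkrn3, a ring-finger gene, stood at 2.38 and 2.62, then 2.64 and 2.04, then 3.18 and 3.08. Peg12 stood at 1.53 and 1.80, then 2.11 and 2.18, then 2.35 and 2.00. These 3 paternally expressed genes changed by between -0.95 and 0.63 on the log2 scale against D0, with adjusted p of 0.061 or more. Ube3a, the maternally expressed ubiquitin ligase of the locus, stood at 7.05 and 6.99, then 6.27 and 6.46, then 5.40 and 6.66. Its D13 difference, 1.99-fold lower, had an adjusted p of 0.054. Snrpn, Snurf and Magel2 had no row.

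**Figure D3:**
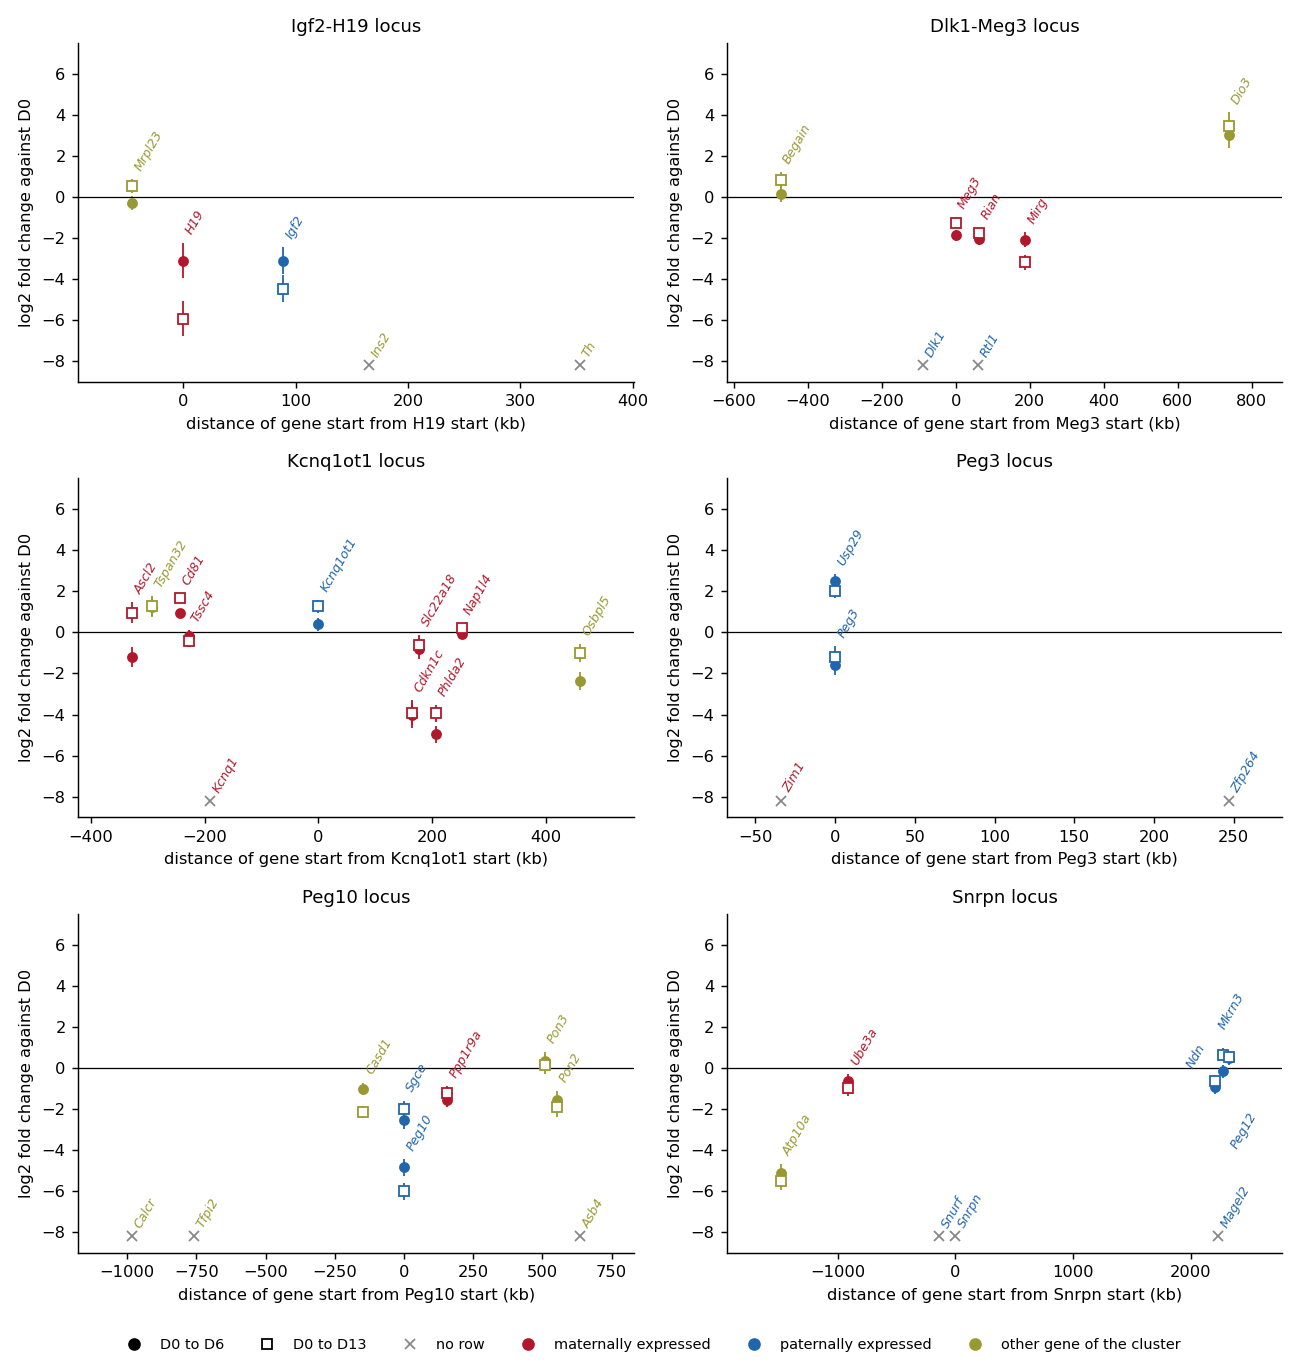
Log2 fold change against D0 (± SE) along 6 imprinted loci, plotted at the distance of each gene's start from a reference start in kb, filled circles for D6 and open squares for D13, with colour for the parental copy and grey crosses on the lowest line for genes with no row. Large falls lie beside genes with little change, as for Cdkn1c (-4.03) and Phlda2 (-4.96) next to Nap1l4 (-0.07) at D6.

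On chromosome 6, Peg10 showed one of the largest falls. Peg10 derives from a retrotransposon and is needed for the placenta, and it starts beside Sgce, which encodes epsilon-sarcoglycan, on the opposite strand. Annotated were Peg10 at chr6:4747306-4760517 (plus strand) and Sgce at chr6:4674350-4747207 (minus strand). Peg10 stood at 9.81 and 8.40 at D0, 4.42 and 4.11 at D6, then 2.86 and 3.35 at D13. Sgce stood at 2.90 and 2.96, then 0.82 and -0.03, then 1.26 and 0.56. Their maternally expressed neighbour Ppp1r9a, which encodes neurabin, stood at 5.41 and 6.17, then 4.30 and 4.15, then 4.23 and 4.93. No D6 or D13 sample reached the D0 range in these 3 genes.

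Peg10 fell 28.6-fold by D6 (log2 -4.84 ± 0.42 SE, limma adjusted p = 1.1e-04) and 64.0-fold by D13 (log2 -6.00, adjusted p = 2.8e-05). Per kilobase of exon it had the highest level of the 36 genes at D0, with a log2 RPKM of 6.37, was in place 18 at D6 and in place 25 at D13. Sgce fell 5.78-fold by D6 (adjusted p = 0.0032) and was 4.05-fold below D0 at D13 (adjusted p = 0.0062), a call lost without D0 replicate 2 (log2 -1.99) or D13 replicate 2 (log2 -1.67). Ppp1r9a was 2.96-fold lower at D6 (adjusted p = 0.0092) and 2.32-fold lower at D13 (adjusted p = 0.018), under the fold minimum.

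Further on the same chromosome, Mest is a paternally expressed gene of the hydrolase family, annotated at chr6:30723547-30748465 on the plus strand. It stood at 8.06 and 7.21 at D0, 5.11 and 6.06 at D6, then 4.98 and 5.31 at D13. It fell 4.14-fold by D6 (log2 -2.05 ± 0.37 SE, limma adjusted p = 0.0043) and 5.60-fold by D13 (adjusted p = 0.0011). The D6 call did not hold without D0 replicate 1 (log2 -1.62) or without D6 replicate 1 (log2 -1.58). Its maternally expressed neighbour Copg2, a subunit of the vesicle coat, stood at 5.70 and 6.69, then 6.78 and 6.62, then 7.28 and 7.25. Copg2 was 2.10-fold higher at D13 (adjusted p = 0.023), under the fold minimum. The 2 genes overlap tail to tail over 23.1% of the Mest exons and 17.8% of the Copg2 exons, where the strand setting of the counting decides which gene a read counts for.

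Nnat and Blcap on chromosome 2 are nested. Nnat, a small membrane protein of neurons and endocrine cells, lies inside an intron of Blcap and is read from the paternal copy, annotated at chr2:157560078-157562522 on the plus strand. Nnat stood at 5.67 and 3.82 at D0, 1.31 and -0.27 at D6, then -0.86 and -2.02 at D13, the last on 39 and 18 reads. It fell 18.7-fold by D6 (log2 -4.22 ± 0.74 SE, limma adjusted p = 0.0035) and 72.6-fold by D13 (log2 -6.18, adjusted p = 3.3e-04). Leaving out D0 replicate 1 gave log2 changes of -3.30 and -5.25, and leaving out D0 replicate 2 gave -5.15 and -7.11. Blcap around it stayed between 4.40 and 4.98 in all 6 samples. In the other nested pair of chromosome 2, the retrogene Mcts2 inside the signal peptide peptidase gene H13, no call was made. Mcts2 was 1.79-fold higher at D6 (adjusted p = 0.043) and H13 1.85-fold lower (adjusted p = 0.035).

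Plagl1, annotated at chr10:13060504-13131694 on the plus strand, rose against the direction of most of the called genes. It stood at 4.01 and 2.79 at D0, 6.54 and 6.83 at D6, then 6.67 and 7.23 at D13, with no overlap between D0 and later samples. The rise was 9.73-fold by D6 (log2 3.28 ± 0.39 SE, limma adjusted p = 4.5e-04) and 11.7-fold by D13 (log2 3.55, adjusted p = 2.1e-04). Without D0 replicate 1 the log2 changes were 3.89 and 4.16, and without D0 replicate 2 they were 2.67 and 2.93. Per kilobase of exon, Plagl1 was in place 29 of 36 at D0 and in place 8 at D13.

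Zdbf2 (chr1:63273265-63314576, plus strand), a zinc-finger gene whose imprinted expression is programmed around implantation, went down at each step. It stood at 8.17 and 7.95 at D0, 5.69 and 6.38 at D6, then 2.45 and 4.45 at D13. The fall was 4.06-fold from D0 to D6 (limma adjusted p = 0.028), 6.01-fold from D6 to D13 (log2 -2.59 ± 0.55 SE, adjusted p = 0.039) and 24.4-fold from D0 to D13 (adjusted p = 3.3e-04). The 2 shorter steps were unstable. The first was lost without D0 replicate 1, D0 replicate 2 or D6 replicate 1, at adjusted p of 0.13, 0.096 and 0.075. The second was lost without D0 replicate 1 or 2 (adjusted p = 0.058 each), D6 replicate 2 (0.14) or D13 replicate 1 (0.11). From D0 to D13 it was called in every such fit, at log2 -3.61 without D13 replicate 1 and -5.61 without D13 replicate 2.

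The remaining single genes were not called. Slc38a4, an amino acid transporter, lay between 7.59 and 8.51 in all samples. Impact, a regulator of translation, went from 8.34 and 8.09 at D0 to 6.87 and 7.65 at D13, 1.93-fold lower (adjusted p = 0.025). Inpp5f, a phosphatase gene, was also 1.93-fold lower at D13 (adjusted p = 0.024). Zrsr1, a retrogene related to a splicing factor, went from 4.44 and 4.31 to 4.90 and 5.10, with an adjusted p of 0.059. The noncoding RNA Peg13 lay between -0.24 and 1.26, and its adjusted p was 0.11 at D13.

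Both parental classes held more genes that fell than genes that rose. The classes are from general knowledge, and whether each gene was read from a single copy in these cells was not measured. Of the 15 maternally expressed genes with a row, 5 fell and 0 rose by D6, with a median log2 change of -1.19. Of the 18 paternally expressed genes, 6 fell and 2 rose, with a median of -0.72. Of all genes, 5.91% rose and 3.9% fell by D6. By adjusted p alone, 1 maternally expressed gene was higher and 7 lower at D6, and 2 were higher and 7 lower at D13. The paternally expressed genes had 3 higher and 6 lower at D6, and 3 higher and 7 lower at D13. Among all genes these shares were 13.8% higher and 10.4% lower at D6, and 20.9% and 21.8% at D13. By D13 the called counts were 4 lower and 0 higher for the maternal class (median -0.99) and 6 lower and 1 higher for the paternal class (median -0.80). Of all genes, 7.45% rose and 6.01% fell by D13. The difference between the classes was not tested, since the genes of a class are not replicates and several share a cluster.

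The 11 genes with a row that were listed with their own promoter at a germline region methylated on the maternal copy did not move as a block. The list leaves out Usp29 and Sgce, which start beside Peg3 and Peg10. Usp29 rose by D6, and Sgce fell by D6 and D13. By D6, Peg10, Mest and Nnat fell and Plagl1 rose, while Peg3, Kcnq1ot1, Impact, Zrsr1, Mcts2, Peg13 and Inpp5f were not called. The counts at D13 were again 3 lower and 1 higher, and the medians were -0.75 at D6 and -0.95 at D13. Of all genes, 5.91% rose and 3.9% fell by D6, and 7.45% rose and 6.01% fell by D13. The 4 called genes of this list covered the range from a 72.6-fold fall to an 11.7-fold rise at D13.

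**Figure D4:**
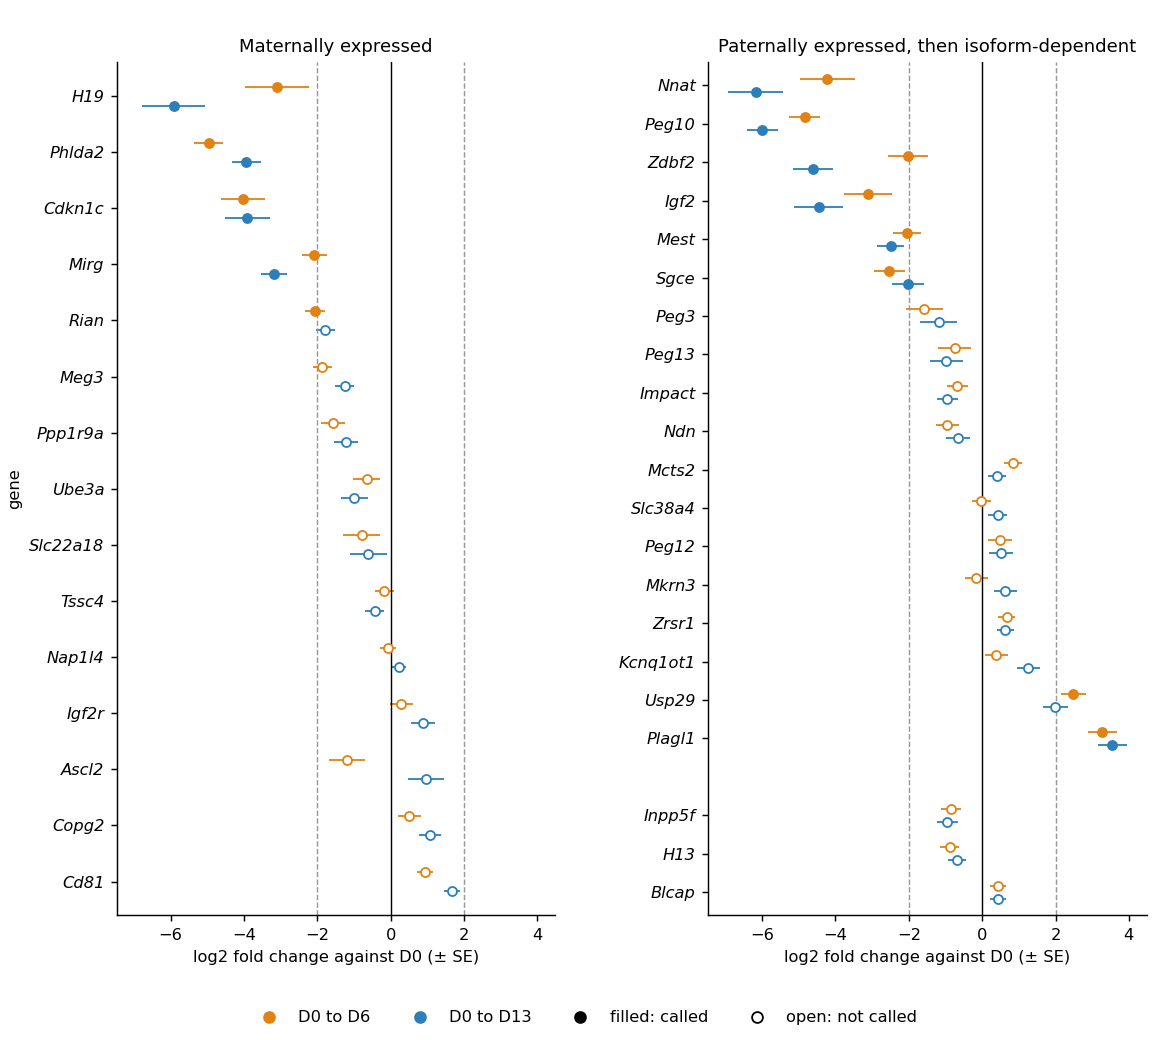
Log2 fold change against D0 with its standard error for each imprinted gene, at D6 in orange and D13 in blue, with filled points for calls and dashed lines at 4-fold. Both classes hold strong falls and genes near 0, and the filled points to the right of 0 are Plagl1 on both days and Usp29 at D6.

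By its day mean, 22 of the 36 genes were highest at D0, 4 at D6 (Usp29, Blcap, Zrsr1 and Mcts2) and 10 at D13. Among all genes the shares were 41.8%, 21.1% and 37.2%. After Peg10, the highest per kilobase at D0 were Nap1l4 (log2 RPKM 5.92), Impact (5.85), Slc38a4 (5.81) and Phlda2 (5.69). At D13 the highest were Cd81 (6.96), Slc38a4 (6.24) and Nap1l4 (6.14), and the lowest was H19 (-2.68). Phlda2 went from place 5 to places 24 and 16.

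The enzymes and factors that set, keep or remove DNA methylation were read from the same samples. All 3 genes listed for de novo methylation, Dnmt3a, Dnmt3b and Dnmt3l, fell. Their log2 changes by D13 were -2.39, -3.70 and -6.32 (limma adjusted p = 1.8e-04, 6.9e-05 and 2.0e-05), where 6.01% of all genes fell. Of 12 genes that keep or read imprints, 0 were called at D6, where 5.91% of all genes rose and 3.9% fell. In limma, 4 had an unadjusted p under 0.05 at D6 (Zfp57, Dppa3, Uhrf1 and Smchd1). Of these, Zfp57 and Uhrf1 (2.16-fold higher, adjusted p = 0.006) passed the adjusted p. Only Dppa3, which guards maternal methylation in the early embryo, rose by D13, where 7.45% of all genes rose. Dppa3 stood at 4.80 and 6.15 at D0, 7.16 and 6.41 at D6, then 8.65 and 8.18 at D13, a 7.66-fold rise (adjusted p = 9.9e-04).

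Zfp57, the zinc-finger protein that recognizes methylated imprints, stood at 7.58 and 7.51 at D0, 8.45 and 8.47 at D6, then 7.71 and 7.52 at D13. Its D6 level was 1.89-fold above D0 (adjusted p = 0.01), under the fold minimum. Its partner Trim28 was 1.44-fold lower at D13 at an adjusted p of 0.16, and the maintenance methylase Dnmt1 1.33-fold higher at 0.18. Uhrf1, the cofactor of Dnmt1, was 3.13-fold higher at D13 (adjusted p = 5.4e-04), and Ctcf, the insulator protein, was 1.92-fold lower (0.012), both under the fold minimum. None of Tet1, Tet2 and Tet3, which oxidize methylated cytosine, was called in limma. At D13 all 3 passed the adjusted p but not the fold minimum, with Tet1 2.66-fold lower (adjusted p = 0.012), Tet2 2.13-fold lower (0.039) and Tet3 3.78-fold lower (0.0024). Tdg of the same list had no row. None of the 5 genes listed for H3K27 and H3K9 methylation (Eed, Ezh2, Suz12, Ehmt1 and Ehmt2) was called. Of all genes, 5.91% rose and 3.9% fell by D6, and 7.45% rose and 6.01% fell by D13. Ehmt1 passed the adjusted p, 1.91-fold lower at D6 (adjusted p = 0.018) and 2.23-fold lower at D13 (0.004), and Suz12 had an unadjusted p under 0.05 at D6.

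The labelled cell type was checked on markers. All 8 ES cell markers had a row, and Pou5f1 stood between 9.46 and 10.18 in every sample. Nanog rose by D6 (log2 2.00, adjusted p = 2.9e-04) and Utf1 fell by D6 (log2 -2.10, adjusted p = 9.7e-04) and D13 (log2 -2.96, adjusted p = 1.2e-04), while the other 6 were not called. Klf4 passed the adjusted p alone, 3.78-fold higher at D6 (0.001) and 2.44-fold higher at D13 (0.0049). At D13 so did Nanog (2.58-fold higher, 0.0014), Dppa5a (2.49-fold higher, 0.014) and Sox2 (1.61-fold lower, 0.031). Summed markers of 3 other cell types were lower on the later days. Of 8 primitive endoderm markers, 4 had a row, and their summed level went from 99.5 and 146 CPM at D0 to 11.7 and 37.5 at D6, then 6.49 and 7.87 at D13. Col4a1, at 6.35 and 6.97 log2 CPM at D0, made up most of the D0 sum. Dab2 and Col4a1 fell against D0 on both days. The estimates for Sox17 (log2 0.16 at D6 and 0.3 at D13) and Pdgfra (0.52 and 0.69) pointed upward and did not pass the adjusted p. Sox7, Foxa2 and Cubn were among those with no row. The 4 of 8 mesoderm and fibroblast markers with a row summed to 32.2 and 12.3 CPM at D0, against 5.66 to 8.83 later, and Col1a2 among them fell by D13 (log2 -3.86, adjusted p = 0.0042). The 5 of 7 neural markers with a row summed to 245 and 184 CPM at D0, 113 and 132 at D6, then 101 and 107 at D13. Nes and Tubb3 made up most of this sum in every sample and were not called. By adjusted p alone, Nes was 2.37-fold lower at D6 (0.011) and Tubb3 3.42-fold lower at D13 (0.0024). Neurod1 fell by D6 (log2 -2.55) and D13 (log2 -2.68) and Map2 by D13 (log2 -2.57), at adjusted p of 0.023, 0.012 and 0.0017. Sox1 went the other way, with log2 differences of 1.23 at D6 (adjusted p = 0.025) and 1.86 at D13 (adjusted p = 0.0023), under the fold minimum. The 3 of 8 trophoblast markers with a row, Ascl2 among them, summed to between 5.36 and 15.9 CPM with no drop from D0 to D13. Krt7 among them was 3.45-fold lower at D6 (adjusted p = 0.0082), under the fold minimum, and rose from D6 to D13 (log2 2.20, adjusted p = 0.024). Among the other lists, the markers T, Mesp1, Col3a1, Postn, Pax6, Cdx2, Elf5, Hand1, Plac1 and Prl3d1 had no row. The part of other cells in the levels of the imprinted genes was not tested.

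Several of the genes that changed most also differed between the D0 replicates. H19, Igf2, Peg10, Cdkn1c, Plagl1 and Nnat were each more than 1 log2 unit higher in D0 replicate 1 than in replicate 2, as were 3.48% of all genes, and Slc22a18 was more than 1 unit lower, as were 6.73%. For H19 the gap was 2.33, for Cdkn1c 2.18, for Igf2 1.98 and for Nnat 1.85. Col1a1, a fibroblast collagen gene, was at 4.21 in D0 replicate 1 and 1.87 in replicate 2, and the ES cell marker Esrrb was at 7.29 and 8.77. The part of this difference between cultures in each gene's level was not tested.

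The D13 replicates differed along gene length. Genes were split by exon length into 4 bins of about equal size. Over the bin with the shortest exons the median of replicate 1 minus replicate 2 was 0.40 on the log2 scale, and over the bin with the longest exons it was -0.41, against 0.10 and -0.19 at D0 and 0.03 and -0.06 at D6. Of the 14 imprinted genes in the longest bin, 12 were lower in D13 replicate 1, all but Sgce and H13. Of the 10 in the shortest bin, 9 were higher there, all but Slc22a18. The gaps were widest for Zdbf2 (-2.00, exons of 12.7 kb), Peg3 (-1.91), Ube3a (-1.26) and, upward, Nnat (1.16) and H19 (1.12). The part of length in the D13 levels of these genes was not tested.

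**Figure D5:**
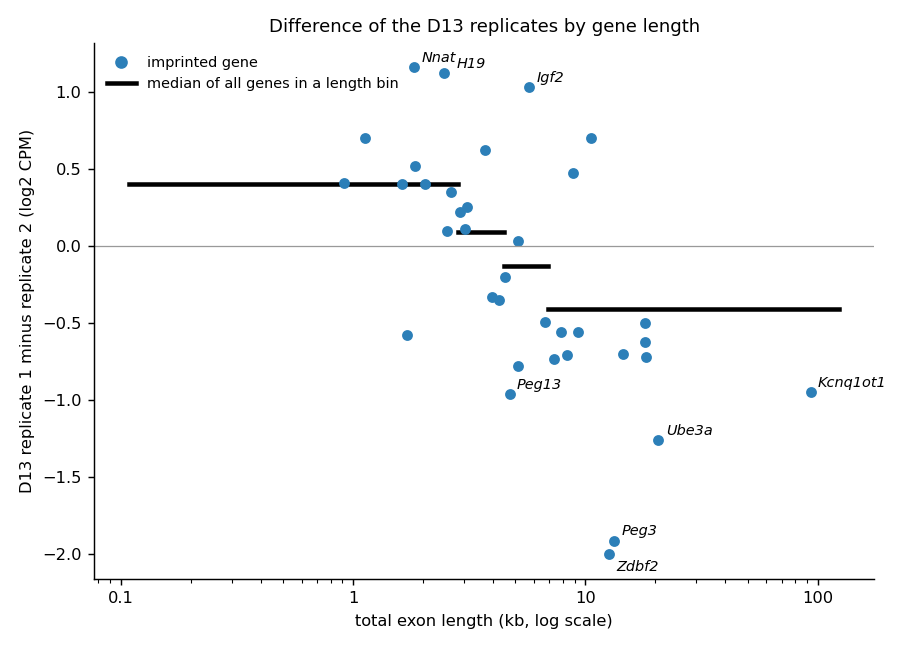
D13 replicate 1 minus replicate 2 in log2 CPM against total exon length on a log scale, with a point for each imprinted gene and black bars for the median of all genes in each of 4 length bins. The bars step down from 0.40 to -0.41, and Zdbf2 and Peg3 lie lowest, at -2.00 and -1.91.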

How the data were processed

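The 6 RNA-seq samples of J1 ES cells were grouped by the day in their labels. Per the study's methods, the authors mapped paired-end reads of a stranded kit onto mm10 with TopHat (2.0.6) and RefSeq genes, counted them with HTSeq (0.6.1), counted transposon families with Bowtie (1.0.0), applied TMM to both together and deposited voom log2 CPM. The strand setting of the counting is not given in the sources used here. Reads were recovered from the values, which for 100% of the low genes were whole within 0.1 reads after an offset of 0.5.

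The deposited log2 values were tested with limma 3.58.1 (R 4.3.3), with a mean per day, a mean-variance trend, no block and adjustment over 12928 genes and transposon families. The fit was tested on simulated data. RPKM is CPM per kilobase of GENCODE vM21 exons (GRCm38, the build of mm10). Exon lengths and overlaps are from this annotation, while the counts used RefSeq genes, so levels and places per kilobase are approximate. Tables used Python 3.11.15, pandas 2.3.3 and matplotlib 3.10.9. The letter G in capitals is absent from the gene names, and 44 names are shared by several rows, none of them named here.

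The imprinted genes, their parental classes (from general knowledge), the other lists, tests and alternatives were chosen with earlier results of these data known. Every imprinted gene is named, those called and those of 5 loci by sample. Of other lists, called genes are named, and others named were chosen after their values were seen. Of 6 planned differences between neighbouring genes, 4 lacked a row. Alternatives were library total scaling, median centring, an offset of 5 reads, a filter of 10 reads in 2 samples, other thresholds, a replicate block, fits of only the 2 days compared, no trend, voom weights, genes only and each sample left out.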

Additional observations from a re-analysis of the deposited data

How the results depend on the processing

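The log2 changes of the called genes under alternatives numbered 375, with the other thresholds left out. Of these, 350 kept direction and call, 25 kept direction only and 0 reversed. At an adjusted p under 0.01, H19 and Zdbf2 were lost from D0 to D6. The labels do not say whether equal replicate numbers on different days mark paired cultures. The r of replicate 1 deviations over genes was -0.13 for D0 and D6, 0.329 for D6 and D13 and 0.137 for D0 and D13. With the replicate block, 3 imprinted genes were called from D6 to D13 (Zdbf2, Ascl2 and H19), and no call against D0 changed. From D0 to D6 the limma adjusted p with the block was 1.6e-04 for H19 and 2.0e-05 for Igf2. From D6 to D13 the count of 1 became 2, with Ascl2 added, under median centring, an offset of 5 reads, voom weights or genes only, and 0 at an adjusted p under 0.01 or in a fit of only the 2 days. With 1 replicate left out it was 0 to 1, and 9 to 13 from D0 to D6 and 11 to 12 from D0 to D13. In such fits the lone replicate is assumed to vary like the other days. A count of 1 from D6 to D13 did not always mean the same gene. Without the trend, and with D0 replicate 2 left out, Ascl2, higher, was called in place of Zdbf2. The 11 genes called from D0 to D13 became 18 with a 2-fold minimum and 20 with none. At an unadjusted p under 0.05, 24, 11 and 25 genes passed in the comparisons D0 to D6, D6 to D13 and D0 to D13. H19 and Nnat at D13 rested on only 18 to 40 reads. H19 from D0 to D6 was also lost in a fit of only the 2 days (adjusted p = 0.055) and without the trend (0.052), Zdbf2 from D0 to D6 without the trend (0.055) and with library totals (log2 -1.99), and Zdbf2 from D6 to D13 in a fit of only those 2 days (0.059) and without the trend (0.063). Sgce from D0 to D13 was lost with an offset of 5 reads (log2 -1.98). The causes were not tested.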

Other observations

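Of 26 further genes that lie in imprinted clusters or are imprinted in some tissues, 14 had a row. Dio3, which inactivates thyroid hormone and lies at the far end of the Dlk1-Meg3 locus, stood at 0.37 and -1.11 log2 CPM at D0, 2.73 and 2.55 at D6, then 3.97 and 2.22 at D13. It rose by log2 3.01 by D6 (limma adjusted p = 0.0094) and 3.47 by D13 (adjusted p = 0.003), while Meg3, Rian and Mirg of that locus were lower than at D0. Atp10a, a phospholipid transporter gene beyond Ube3a, stood at 5.44 and 4.74 at D0, 0.08 and -0.15 at D6, then -0.93 and 0.10 at D13. Its log2 changes were -5.13 and -5.51 (adjusted p = 1.2e-04 and 5.9e-05), beside the uncalled genes of the Snrpn locus. Osbpl5, at the edge of the Kcnq1ot1 locus, fell to D6 (log2 -2.36, adjusted p = 0.0046) and was at -1.01 against D0 at D13 (adjusted p = 0.091). Casd1, next to Sgce, fell by D13 (log2 -2.14, adjusted p = 5.4e-04). The median log2 change of the 14 genes was 0.12 at D6 and 0.38 at D13.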
